A study of Mus musculus with 12 samples.

Results

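The results concern 6 of the 12 libraries of the series: the RNA and ribosome footprint (RPF) libraries of the 3 lysates of R1 mouse embryonic stem cells that received an siRNA against Krr1. R1 is an established line of pluripotent cells, kept here on gelatin in serum medium with LIF, and all groups were transfected for 48 h. The labels speak of 3 different Krr1 siRNAs, and the lysates are called siKrr1 A, C and D after the letters of their columns. All libraries of the knockdown condition were taken, and each lysate was compared with the other 2. The 6 control libraries come from 3 lysates named siGFP, siNC and Lipo, the last of which names no siRNA. Each lysate was split between rRNA-depleted RNA-seq and footprints, the mRNA fragments covered by ribosomes, so each siRNA has 2 measurements but 1 lysate. What belongs to the siRNA and what to its culture cannot be told apart, and the p-values compare these lysates.

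Krr1 is an assembly factor of the small-subunit processome, the nucleolar complex that cuts and folds the precursor of 18S rRNA into the small ribosomal subunit. Embryonic stem cells make ribosomes at a high rate and keep their identity through a network of transcription factors that includes Pou5f1 (Oct4), Sox2 and Nanog. When ribosome assembly fails, free ribosomal proteins can bind Mdm2, the ubiquitin ligase that keeps p53 low, and p53 target genes then rise. An siRNA acts through the base pairing of its guide strand, so siRNAs of different sequence against 1 mRNA share their target but not the other mRNAs they can pair with.

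Counts on genes ran from 31318772 to 37673764 in the 3 siKrr1 RNA libraries and from 21615934 to 28911254 in their footprint libraries, with controls in the same ranges or up to 39670139. The 2 libraries of a lysate deviated together from the mean of the 3: over the 6150 genes whose mean reached 20 CPM (counts scaled to library size) in both assays, r across genes was 0.728 for A, 0.629 for C and 0.651 for D, and between different lysates it was -0.198 to -0.419. The 3 deviations of a gene cancel within each assay. Once r within lysates is positive, r between different lysates is therefore negative on average. The 7 pluripotency markers checked summed to 5870, 6340 and 5500 CPM of RNA in A, C and D and to 6760 to 6890 in controls. Of 8 fibroblast and feeder markers 6 were under 1 CPM in each siKrr1 RNA library, and the list summed to 5.24, 6.24 and 8.82 CPM in A, C and D and to 7.16 to 7.46 in controls, while the 3 two-cell-like markers were near 0. In bulk libraries such as these, fewer cells of a type and less RNA per cell cannot be told apart.

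Krr1 (chromosome 10, 111972695 to 111988430, mm10) was low in all 6 libraries and lowest in A. Its RNA stood at 33.6 CPM in A, 57.9 in C and 64.9 in D, against 155, 151 and 160 in siGFP, siNC and Lipo. Krr1 footprints were at 31.0, 61.5 and 51.5 CPM against 165, 158 and 171. No siKrr1 library overlapped the controls in either assay, and A had the lowest value of both. As a share of the control mean, A kept 21.6% of the RNA and 18.8% of the footprints, C kept 37.2% and 37.3%, and D kept 41.7% and 31.2%. The log2 difference of A from C and D was -0.87 ± 0.09 (SE), with an edgeR adjusted p of 4.21e-05. Between C and D the order differed by assay, and with A left out their log2 difference was -0.04 for D (edgeR adjusted p = 0.845).

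More genes were called between the knockdown lysates than between the control lysates by the same test. Of 12668 genes tested, siKrr1 A was higher than the other 2 lysates at 1013 (8.00%) and lower at 795 (6.28%) (edgeR quasi-likelihood test with assay and lysate as terms, Benjamini-Hochberg adjusted p under 0.05; "called" below). siKrr1 C was higher at 482 genes (3.80%) and lower at 729 (5.75%), and siKrr1 D was higher at 994 (7.85%) and lower at 895 (7.07%). Any difference among the 3 was called at 2834 genes (22.4%). The same test on the controls called 363 of 12607 genes in siGFP (2.88%), 102 in siNC (0.809%) and 16 in Lipo (0.127%). Differences over 2-fold were called at 80 genes up and 62 down in A, 24 and 68 in C and 71 and 15 in D, while no control had more than 5 in a direction. The 3 contrasts use the same libraries, so a gene that is high in 1 lysate is low in the contrasts of the others. The error of these tests is the disagreement of the 2 assays. Without the replicate block, where the spread between the 2 other lysates enters the error, 197 genes were called in A (1.56%), 21 in C (0.166%) and 14 in D (0.111%). In single pairs, each fitted without the third lysate, A was higher than C at 923 genes (7.29%) and lower at 698 (5.51%), A was higher than D at 1232 (9.73%) and lower at 1212 (9.57%), and D was higher than C at 385 (3.04%) and lower at 265 (2.09%). Leaving out either library of A, which leaves that lysate 1 library, brought its count to 154. Leaving out RNA or footprints of A brought C to 370 and 306 genes and D to 237 and 429. Without the RNA library of C its count was 492, and without that of D its own was 280.

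**Figure D1:**
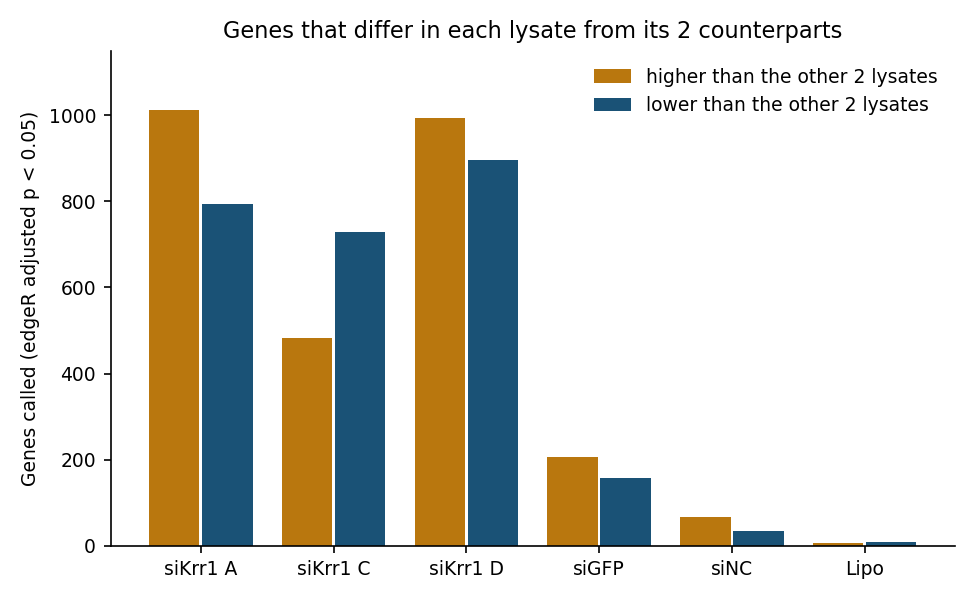
Number of genes (vertical axis) called higher or lower in each lysate than in the other 2 of its condition, by the edgeR test with assay and lysate as terms. The 3 siKrr1 lysates have 482 to 1013 genes per direction, and no control lysate has more than 205.

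Lysates A and D were farther from the controls than C. Over those 6150 genes, the SD of the log2 difference from the control mean was 0.274 in RNA and 0.278 in footprints for A, 0.267 and 0.242 for D, and 0.173 and 0.171 for C. In both assays and the same direction, 220 genes were over 1.5-fold from the control mean in A, 135 in D and 30 in C. Among the knockdown lysates, the SD of the log2 difference was 0.210 and 0.214 for A against C, 0.231 and 0.202 for A against D, and 0.225 and 0.183 for C against D, in RNA and footprints, while control pairs had 0.0968 to 0.150. No gene differed by over 1.5-fold in opposite directions in the 2 assays in any of these pairs.

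The side of the controls on which a called gene lay also set C apart. Of the genes called higher in A, 80.3% were above all 3 controls in both assays, and of those called lower 80.8% were below all 3, as 69.1% and 70.4% were in D. For C these shares were 20.1% and 17.3%. The genes called in C lay on the other side more often: 30.3% of those called higher were still below all 3 controls in both assays, and 33.5% of those called lower were still above them. At such genes C had left the controls in the direction of the mean of A and D, but less far. Over all genes tested, the share outside the controls in both assays was 17.1% to 24.0% per lysate and direction.

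**Figure D2:**
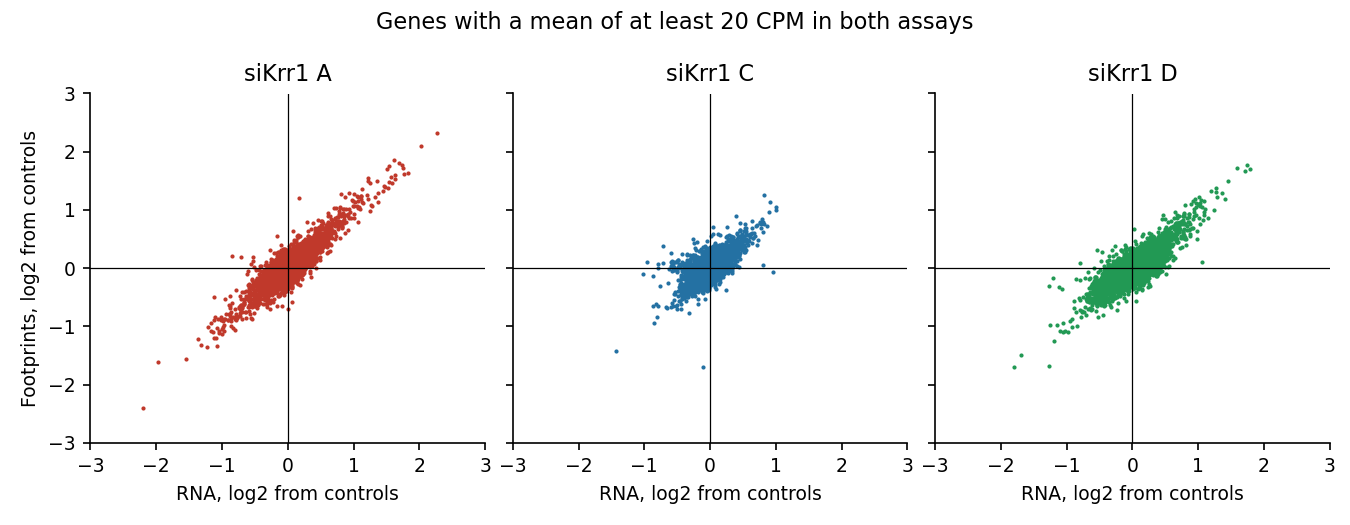
Log2 difference of each siKrr1 lysate from the mean of the 3 controls in RNA (horizontal axis) and in footprints (vertical axis) for the 6150 genes whose mean reached 20 CPM in both assays, 1 point per gene. The points of C lie closer to the centre than those of A and D, with 30 genes over 1.5-fold in both assays against 220 and 135.

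Contractile and actin genes that serum response factor (SRF) is known to drive were higher in A than in C and D. Of 27 such genes tested, 19 were called higher in A and none lower, with a median log2 difference of 0.47, against a median of 0.001 over all genes. In C 12 were called lower and in D 7, with medians of -0.34 and -0.17. The shares over all genes were 8.00% higher in A, 5.75% lower in C and 7.07% lower in D. Tagln (transgelin, an actin-binding protein, chromosome 9, 45929628 to 45936058) had the largest difference among the genes named for any lysate. Its RNA was at 41.8 CPM in A, 7.28 in C and 5.28 in D and at 2.84, 1.99 and 1.83 in siGFP, siNC and Lipo. Its footprints were at 57.5, 9.66 and 8.10 CPM, and at 3.04, 1.99 and 2.50 in the controls. Both A libraries stood far above the rest, and C and D lay above all 3 controls. The log2 difference of A was 2.72 ± 0.08 (edgeR adjusted p = 1.03e-09).

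Myl9, a regulatory light chain of nonmuscle and smooth muscle myosin, had RNA of 20.2, 4.20 and 4.99 CPM and footprints of 21.9, 5.22 and 5.94 CPM in A, C and D, with controls from 1.36 to 2.21. A was far above the other lysates in both assays, as for Tagln, and the log2 difference of A was 2.06 ± 0.11 (edgeR adjusted p = 2.31e-07). The tropomyosin Tpm1 (0.90 ± 0.06) and the calponin Cnn2 (0.79 ± 0.07) were called as well, with edgeR adjusted p of 1.72e-06 and 1.67e-05, as was Vcl, the focal adhesion protein vinculin (0.34 ± 0.05, edgeR adjusted p = 0.00101). Smooth muscle actin Acta2 was scarce, at 1.76 CPM of RNA in A, 0.348 in C, 0.212 in D and 0.153 to 0.282 in controls, with a log2 difference of 1.60 ± 0.31 in A (edgeR adjusted p = 0.00462). Beta-actin (Actb) was not called (0.10 ± 0.04, edgeR adjusted p = 0.150). Tagln and Acta2 are also markers of fibroblasts. Of 10 fibroblast and feeder markers tested, 4 were called higher in A (Tagln, Vim, Acta2 and Col5a2) and 1 lower (Thy1), with a median of 0.20, and in C 3 were lower (median -0.485). In D 3 were higher (Thy1, Vim and Twist1) and 1 lower (Tagln). Among all genes 8.00% were higher and 6.28% lower in A, 5.75% lower in C, and 7.85% higher and 7.07% lower in D. Of 8 defining markers of these cells, Col3a1, Lum, Dcn and Postn were at 0 in the RNA of all 3 siKrr1 lysates. The summed RNA of the 8, most of it from Thy1 and Twist1, was 5.24 CPM in A, 6.24 in C, 8.82 in D and 7.16 to 7.46 in controls. The part of such cells in the difference of A was not tested. C against D, without A, gave 1 called member of 27, so the lower calls in C and D rest on the level of A. Against D alone 18 were higher in A, and against C alone 19. With the RNA or the footprint library of A left out, 8 and 7 were called, and without the block 7 (Tagln, Myl9, Cnn1, Cnn2, Tpm1, Vcl and Csrp1).

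The binding motif of SRF, the CArG box, was searched on both strands in the upstream bases of the promoters that RefSeq gives for build GRCm38.p6 (mm10). Of 24 list members with an entry, 8 held a CArG box in the 250 bases before a start (33.3%), against 135 of 10019 tested genes with an entry (1.35%) and 482 of 32851 promoters (1.47%). The list was written from known SRF targets, so its share is a description of the list. Of the 8 with the motif 5 were called higher in A, and of the 16 without it 12. Tagln, Actb and Tgfb1i1 had no entry. The 3 members called in A with the motif and the smallest adjusted p are shown for their promoters, with the CArG box in capitals: Myl9 (chr2:156775214-156775463, plus strand, box 161 bases before the start), Cnn2 (chr10:79988350-79988599, plus strand, 56 bases) and Vcl (chr14:20929148-20929397, plus strand, 227 bases).
Myl9: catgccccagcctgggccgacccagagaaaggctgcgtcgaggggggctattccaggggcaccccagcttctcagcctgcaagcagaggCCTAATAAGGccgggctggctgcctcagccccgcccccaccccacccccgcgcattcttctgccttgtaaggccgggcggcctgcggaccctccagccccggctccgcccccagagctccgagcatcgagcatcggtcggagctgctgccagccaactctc
Cnn2: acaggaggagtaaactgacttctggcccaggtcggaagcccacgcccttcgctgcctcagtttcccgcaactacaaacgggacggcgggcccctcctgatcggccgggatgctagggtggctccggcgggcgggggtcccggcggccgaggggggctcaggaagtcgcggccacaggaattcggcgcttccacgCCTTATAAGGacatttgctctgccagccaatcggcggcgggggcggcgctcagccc
Vcl: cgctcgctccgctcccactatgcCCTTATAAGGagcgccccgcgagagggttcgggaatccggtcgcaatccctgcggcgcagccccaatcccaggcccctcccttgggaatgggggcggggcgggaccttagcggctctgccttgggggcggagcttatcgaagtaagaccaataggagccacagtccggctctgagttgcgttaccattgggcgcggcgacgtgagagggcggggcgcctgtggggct

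Targets of YAP, a cofactor of TEAD transcription factors that responds to tension and adhesion, were listed together with matricellular genes. This joint list was graded across the lysates. Of 22 tested, 11 were called higher in A and 1 lower (median 0.33). In C 13 were lower and 1 higher (-0.50), and in D 4 were higher (0.06). The shares over all genes were 8.00% higher and 6.28% lower in A, 3.80% and 5.75% in C, and 7.85% higher in D. Cyr61, a secreted matricellular protein, had RNA of 62.5 CPM in A, 21.1 in C and 43.2 in D, against 13.9, 12.4 and 12.3 in controls. Cyr61 footprints were at 151, 39.6 and 104 CPM against 32.2, 28.8 and 29.5. The order A, D, C and controls held in both assays without overlap. Its log2 difference was -1.48 ± 0.08 in C (edgeR adjusted p = 1.55e-06) and 1.14 ± 0.07 in A (edgeR adjusted p = 1.72e-06). Ctgf, its relative, had the same order, with -0.99 ± 0.07 in C and 0.84 ± 0.07 in A (edgeR adjusted p of 7.16e-06 and 6.68e-06). Serpine2, a secreted protease inhibitor, was at 42.8, 13.9 and 22.2 CPM of RNA in A, C and D and at 9.16 to 12.2 in controls (1.28 ± 0.06 in A, edgeR adjusted p = 1.57e-07). Fstl1 went against the list, at -0.52 ± 0.06 in A and 0.54 ± 0.06 in C (edgeR adjusted p of 0.000115 and 8.15e-05). In single pairs, 8 members were higher and 3 lower in A than in D, 11 higher and 1 lower in A than in C, and 11 higher and 1 lower in D than in C. Only Serpine2 in A and Cyr61 in C stayed called without the block, and without RNA or footprints of A its own higher calls were 6 and 5.

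The TEAD motif (GGAATG, or CATTCC on the other strand) was found upstream of 7 of 16 list members with an entry (43.8%), against 1265 of 10019 tested genes (12.6%) and 4153 of 32851 promoters (12.6%). This list too was written from known targets, here with matricellular genes added, so its share is a description of the list. Of the 7 with the motif 4 were called higher in A, and of the 9 without it 3. The promoters of 3 of the 4 called members show it in capitals, as the part that matches: Cyr61 (chr3:145649986-145650235, minus strand, 103 bases before the start), Ajuba (chr14:54577662-54577911, minus strand, 2 matches at 186 and 164 bases) and Amotl2 (chr9:102717554-102717803, plus strand, 65 bases).
Cyr61: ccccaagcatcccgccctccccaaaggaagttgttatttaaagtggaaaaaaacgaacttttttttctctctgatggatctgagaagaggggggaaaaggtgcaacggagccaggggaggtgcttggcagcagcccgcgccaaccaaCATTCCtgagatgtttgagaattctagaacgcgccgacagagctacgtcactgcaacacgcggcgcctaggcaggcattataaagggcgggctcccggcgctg
Ajuba: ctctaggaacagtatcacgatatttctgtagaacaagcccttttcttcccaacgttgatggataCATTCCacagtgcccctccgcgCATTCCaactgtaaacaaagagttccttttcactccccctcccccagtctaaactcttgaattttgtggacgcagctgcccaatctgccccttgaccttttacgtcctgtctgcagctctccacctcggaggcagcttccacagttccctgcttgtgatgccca
Amotl2: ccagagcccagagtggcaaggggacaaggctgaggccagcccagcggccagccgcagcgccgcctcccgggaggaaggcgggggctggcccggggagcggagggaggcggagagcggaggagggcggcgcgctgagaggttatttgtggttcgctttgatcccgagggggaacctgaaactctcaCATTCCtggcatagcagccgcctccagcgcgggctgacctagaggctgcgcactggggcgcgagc

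Genes that p53 activates were also highest in A and lowest in C by their median. Of 39 tested, 25 were called higher in A and none lower (median 0.29). In C 23 were lower and 1 higher (-0.37), and in D 1 was higher and 5 lower (0.02). The shares over all genes were 8.00% higher and 6.28% lower in A, 3.80% and 5.75% in C, and 7.85% and 7.07% in D. Against the mean of the controls the list's median in RNA was 0.79 in A, 0.54 in D and 0.27 in C, and in footprints 0.79, 0.58 and 0.28, so it lay above the controls in all 3. The BH3-only gene Pmaip1 (Noxa), which promotes cell death, had RNA of 87.2 CPM in A, 36.2 in C and 61.0 in D against 27.9, 28.6 and 21.4 in controls. Its footprints were at 62.9, 25.9 and 38.0 CPM against 21.9, 19.2 and 16.1. A was highest and C nearest to the controls in both assays. The log2 differences were 0.94 ± 0.07 in A and -0.97 ± 0.07 in C (edgeR adjusted p of 2.98e-06 and 9.03e-06).

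Mdm2, the ligase that p53 itself induces, was at 278, 175 and 227 CPM of RNA in A, C and D and at 138 to 156 in controls (0.54 ± 0.05 in A, edgeR adjusted p = 4.27e-05). Cdkn1a, the cell cycle inhibitor p21, was at 36.9, 25.8 and 25.5 CPM of RNA and at 56.6, 31.3 and 46.1 of footprints, with a log2 difference of 0.54 ± 0.10 in A (edgeR adjusted p = 0.00274). The membrane protein Perp (0.66 ± 0.06) and the sugar reductase Dcxr (0.97 ± 0.07) were also higher in A, with edgeR adjusted p of 1.25e-05 and 3.65e-06. Trp53 was not called in any lysate: its RNA was at 147, 153 and 137 CPM and its footprints at 831, 698 and 651 in A, C and D (edgeR adjusted p of 0.101, 0.909 and 0.0727). In pairs, 19 members were higher in A than in D and none lower, and 12 were higher and 1 lower in D than in C. Without RNA or footprints of A, 9 and 8 members were called in A, and without the block 5 (Phlda3, Ddit4, Epha2, Ptp4a3 and Dcxr). Krr1 was lowest in A as well, and its part in the order of these genes was not tested.

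Other genes were high in A by the naming rule, which takes the largest differences among genes of at least 5 CPM. Tap1, the peptide transporter of antigen presentation, was also counted in the p53 list above. Its RNA was at 14.3, 4.17 and 6.52 CPM in A, C and D and at 2.85 to 3.39 in controls (1.54 ± 0.14, edgeR adjusted p = 1.71e-05). The cell surface protein Cd109 (1.37 ± 0.13), the keratin Krt19 (1.20 ± 0.14), Id2, an inhibitor of basic helix-loop-helix factors (1.12 ± 0.08), the imprinted gene Nnat (1.10 ± 0.12) and the integrin adaptor Fermt1 (1.04 ± 0.15) were next, with edgeR adjusted p from 2.45e-06 for Id2 to 0.000562 for Fermt1. Id2 and Nnat were also high against C and D singly, whereas Tap1, Cd109 and Fermt1 had D between A and C. Without the block the calls of Tap1, Cyr61 and Fermt1 were lost. Without the footprints of A, Krt19 and Fermt1 lost theirs (edgeR adjusted p of 0.0563 and 0.0753).

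The genes lowest in A were led by Ripply3, a transcriptional corepressor. Its RNA was at 3.34 CPM in A, 10.5 in C and 11.6 in D and at 14.0 to 17.7 in controls, and its log2 difference was -1.58 ± 0.15 (edgeR adjusted p = 3.48e-05). Accsl (-1.38 ± 0.13), the homeobox factor Nkx6-3 (-1.21 ± 0.15), the endothelial nitric oxide synthase Nos3 (-1.21 ± 0.11), the villin relative Vill (-1.19 ± 0.10), Ankrd33b (-1.13 ± 0.08), the cAMP-sensitive exchange factor Rapgef3 (-1.07 ± 0.08), Cdc42ep1 (-1.06 ± 0.12), Crtac1 (-1.05 ± 0.13) and Nckap1l (-1.05 ± 0.10) followed, with edgeR adjusted p from 3.65e-06 to 0.000279. Nos3 and Cdc42ep1 were also called high in D, and both lost their call in A without the block (edgeR adjusted p of 0.0905 and 0.187). Nkx6-3 lost its call without the RNA of A (edgeR adjusted p = 0.0592) and Crtac1 without its footprints (edgeR adjusted p = 0.0529). In Nckap1l, RNA was 10.4 CPM in A and 11.2 to 13.6 in controls, but 21.0 and 22.9 in C and D, so that A alone was near the controls.

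In some genes A alone was away from the controls, at over 1.5-fold in both assays while C and D stayed within 1.25-fold. These folds were chosen after the values were seen. There were 20 such genes higher and 24 lower in A, of 350 and 219 called genes over 1.5-fold from the controls on that side. In D there were 23 higher and 7 lower, of 226 and 63. In C there were 0 higher and 1 lower, of 5 and 8, so few genes of C could qualify. Means reached 5 CPM in both assays at 13 and 15 of these genes in A, 11 and 4 in D and 0 in C. Man2b1, a lysosomal mannosidase, was at 199 CPM of RNA in A, 105 in C and 111 in D and at 84.2 to 96.6 in controls, and its footprints at 212, 102 and 109 against 92.5, 103 and 96.5. A was over 1.5-fold above the controls in both assays and C and D within 1.25-fold of them, with a log2 difference of 0.95 ± 0.05 (edgeR adjusted p = 5.92e-07). Ldhb, the heart-type lactate dehydrogenase subunit and like Man2b1 chosen after its values were seen, was at 85.0, 45.6 and 41.6 CPM of RNA and at 43.5 to 50.8 in controls (0.88 ± 0.06, edgeR adjusted p = 3.47e-06). The signalling ligand Bmp4 was at 77.6 CPM of RNA in A, 111 in C, 134 in D and 120 to 131 in controls (-0.65 ± 0.06, edgeR adjusted p = 1.63e-05).

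The 9 genes named as highest in C were all below the 3 controls in both assays of A and D. Ccnd2 (cyclin D2, which drives entry into S phase; chromosome 6, 127125162 to 127152188) had RNA of 44.6 CPM in C, 13.8 in A and 16.8 in D against 55.8, 57.1 and 50.7 in controls. Its footprints were at 67.1, 27.6 and 30.3 CPM in C, A and D against 81.9, 94.5 and 79.5. C lay between the controls and the other lysates in both assays, with a log2 difference of 1.38 ± 0.08 (edgeR adjusted p = 1.55e-06). Mapt, the microtubule protein tau, had the same order, at 16.9 CPM of RNA in C, 5.87 in A, 8.19 in D and 26.3 to 26.5 in controls (1.23 ± 0.12, edgeR adjusted p = 5.52e-05). Inhbb, an activin subunit, was at 76.4, 34.7 and 44.2 CPM in C, A and D and at 95.3 to 109 in controls (0.97 ± 0.07, edgeR adjusted p = 5.68e-06).

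Accsl (1.23 ± 0.11), Sgms2 (1.06 ± 0.14), Nkx6-3 (0.87 ± 0.14), Actn3 (0.84 ± 0.12), Cd68 (0.79 ± 0.11) and Slc37a1 (0.76 ± 0.11) complete the list, with edgeR adjusted p from 3.40e-05 to 0.00169. Accsl and Nkx6-3 were also named as lowest in A, and Nkx6-3 in C lost its call without A (edgeR adjusted p = 0.212). Ccnd2, Mapt and Inhbb kept their calls without the block (edgeR adjusted p of 0.0171, 0.0393 and 0.0469), whereas the other 6 did not.

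Among the genes lowest in C, Cyr61 was described above and Commd3 had the next lowest adjusted p. Commd3 encodes a COMM domain protein of endosomal cargo sorting (chromosome 2, 18672435 to 18676231). Its RNA was at 27.6 CPM in C, 68.0 in A and 55.7 in D against 21.5, 22.7 and 24.1 in controls, and its footprints at 24.2, 60.7 and 51.2 CPM against 23.6, 22 and 20.4. C was close to the controls and A and D were both over 2-fold above them, with a log2 difference of -1.18 ± 0.07 for C (edgeR adjusted p = 1.55e-06). The Wnt target Sp5 was at 3.45 CPM of RNA in C, 8.76 in A, 7.95 in D and 2.86 to 3.36 in controls (-1.12 ± 0.15, edgeR adjusted p = 0.000542). The secreted glutathione peroxidase Gpx3 was at 7.84, 15.3 and 14.6 CPM in C, A and D and at 6.82 to 8.17 in controls (-1.0 ± 0.11, edgeR adjusted p = 0.000128). Tap1 (-1.46), Cd109 (-1.30), Fermt1 (-1.21), Myl9 (-1.20) and Serpine2 (-1.14) were low in C as well, and all 5 were also named as highest in A. Myl9 lost its call without A (edgeR adjusted p = 0.421). Cyr61 and Commd3 kept theirs without the block (edgeR adjusted p of 0.0469 and 0.0198), and the other 8 of the 10 did not.

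In D, the largest rises were in Cdc42ep1, an effector of the GTPase Cdc42, and in Lrrk2, a large kinase known from Parkinson's disease (chromosome 15, 91672791 to 91816124). Cdc42ep1 RNA was at 11.8 CPM in D, 3.59 in A and 5.16 in C against 2.55 to 3.86 in controls (1.41 ± 0.11, edgeR adjusted p = 1.39e-05). Lrrk2 RNA was at 31.1 CPM in D, 12.9 in A and 11.0 in C against 12, 10.8 and 11.4 in controls, and its footprints at 21.4, 8 and 9.32 CPM against 10.1, 8.60 and 8.56. A and C were at the level of the controls and only D was away from it, by a log2 difference of 1.35 ± 0.10 from A and C (edgeR adjusted p = 1.28e-05). Kdr, the main VEGF receptor, was at 12.3 CPM of RNA in D, 5.68 in A and 5.96 in C and at 2.38 to 3.42 in controls (1.13 ± 0.11, edgeR adjusted p = 6.28e-05).

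Further genes high in D were Nos3 (1.30 ± 0.09), the integrin Itga1 (1.17 ± 0.13), the prolyl hydroxylase Egln3 (1.13 ± 0.09), transferrin Trf (1.07 ± 0.06), the repressor Bhlhe40 (1.03 ± 0.08), Ier3 (1.03 ± 0.13) and the peroxidasin Pxdn (0.99 ± 0.08), with edgeR adjusted p from 6.94e-07 for Trf to 0.000435 for Ier3. Some of these varied among controls too: Bhlhe40 RNA was at 26.3 CPM in D, 13.7 in A and 12.4 in C, but at 14.2, 23.6 and 12.6 in siGFP, siNC and Lipo. Egln3 and Bhlhe40 are known hypoxia-response genes, and siNC was the highest control of both. Cdc42ep1, Lrrk2, Kdr and Bhlhe40 kept their calls without the block (edgeR adjusted p of 0.0452, 0.0159, 0.0343 and 0.0159), and the other 6 did not.

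Gspt1, which encodes the translation termination factor eRF3a (chromosome 16, 11216240 to 11254325), was low in D alone. Its RNA was at 97.7 CPM in D, 172 in A and 185 in C against 178, 186 and 194 in controls. Its footprints were at 259 CPM in D, 491 in A and 510 in C against 472, 480 and 473. Both D libraries were below all others, and A and C did not leave the controls by more than 1.25-fold. The log2 difference was -0.91 ± 0.05 (edgeR adjusted p = 2.15e-06), and it lay between -0.95 and -0.87 in all alternatives run, with an edgeR adjusted p of 0.00854 without the block. Pmm2, a phosphomannomutase of protein glycosylation, was at 25.9 CPM of RNA in D, 48.7 in A and 43.3 in C and at 36.6 to 43.6 in controls (-0.76 ± 0.08, edgeR adjusted p = 7.48e-05). Snrpg, a core protein of spliceosomal snRNPs chosen after its values were seen, was at 34.2, 56.7 and 51.5 CPM in D, A and C and at 54.8 to 72.0 in controls (-0.63 ± 0.09, edgeR adjusted p = 0.000751). It lost its call without the RNA library of D (edgeR adjusted p = 0.0732) and without the block (edgeR adjusted p = 0.0735).

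The other 7 genes named as lowest in D included Tagln (-1.63) and Lefty1 (-0.82), an inhibitor of Nodal signalling, both highest in A. Tagln in D lost its call without A (edgeR adjusted p = 0.163). Fam173b (-0.78), D7Ertd143e (-0.99), the water channel Aqp3 (-0.74), the telomerase RNA Terc (-0.71) and Map6 (-0.68) were lowest in D in both assays, with edgeR adjusted p from 0.000334 for D7Ertd143e to 0.00477 for Map6. D7Ertd143e and Map6 lost their calls without the RNA library of D (edgeR adjusted p of 0.0625 and 0.0810), and Fam173b without A (edgeR adjusted p = 0.0560). Terc RNA was at 143 CPM in D, 185 in A, 196 in C and 148 to 203 in controls. Terc and the long noncoding RNA D7Ertd143e code for no known protein, so their reads in the footprint libraries may be RNA fragments other than footprints, which was not tested. Of these 9 genes, Gspt1 and Pmm2 kept their calls without the block.

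**Figure D3:**
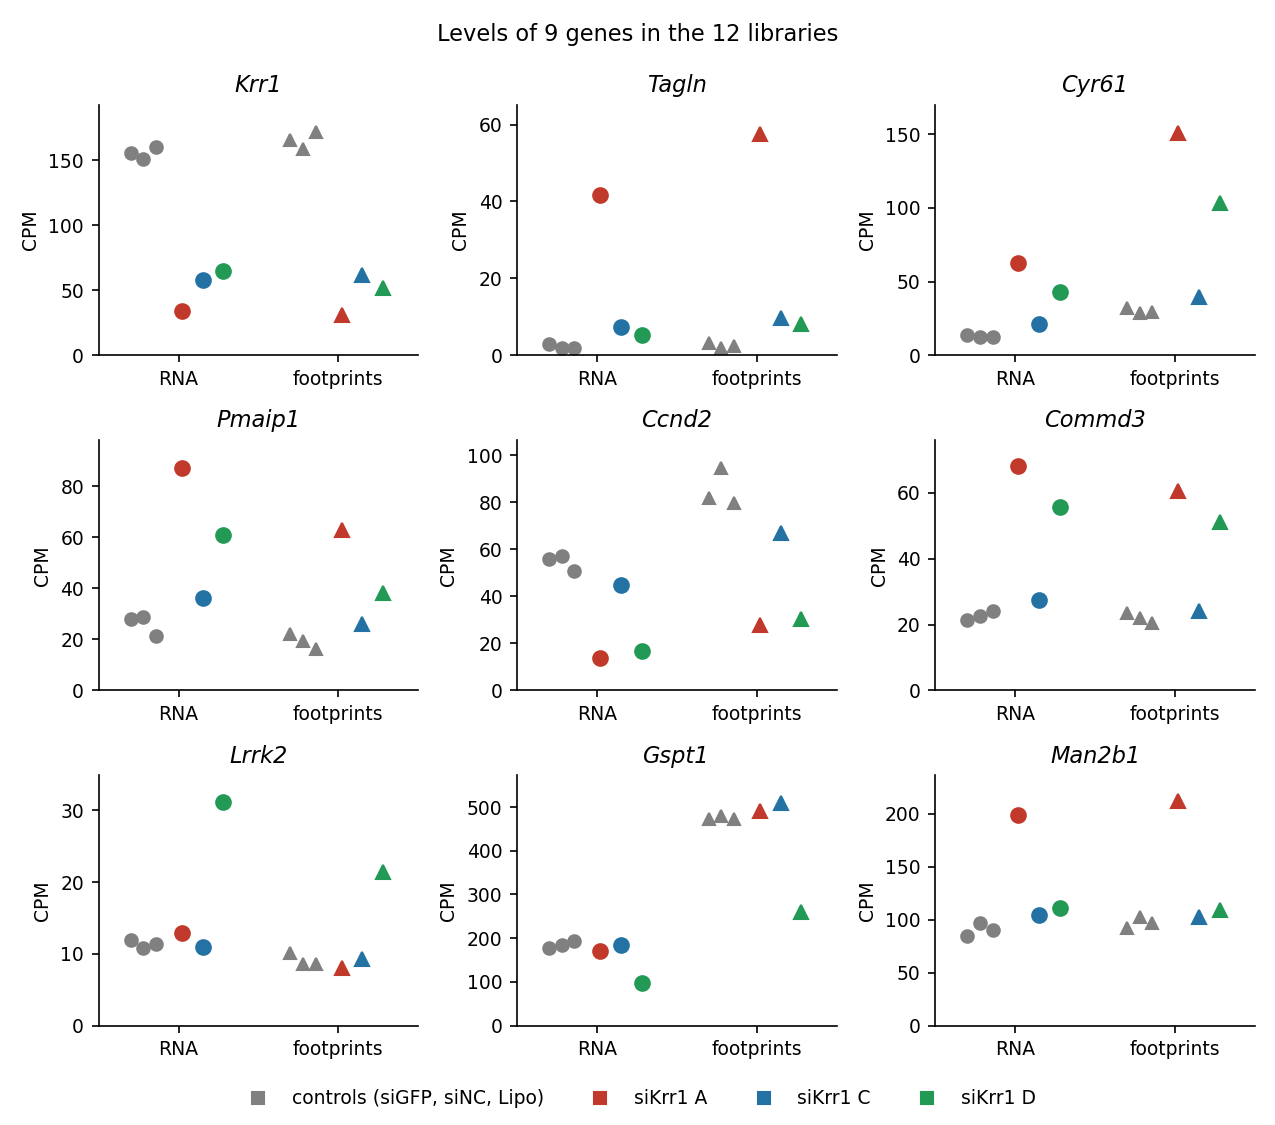
Levels in CPM (vertical axes, each starting at 0) of 9 genes in the RNA and footprint libraries of the 3 controls (grey) and of siKrr1 A, C and D, 1 point per library. Tagln was highest in A, Cyr61 and Pmaip1 were graded A, D, C, Ccnd2 and Commd3 had C nearest to the controls, Lrrk2 and Gspt1 had only D away from them, and Man2b1 had only A more than 1.5-fold from them.

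Ribosomal protein genes were lowest in D. Of 32 genes of the small subunit, 11 were called lower in D and none higher, and of 53 of the large subunit 13 and none (medians -0.22 and -0.19, against 0.009 over all genes). A had 7 and 5 called higher and C 1 and 3, with none lower. Among all genes 7.07% were lower in D, 8.00% higher in A and 3.80% higher in C. Rps15 RNA was at 410 CPM in D, 539 in A and 515 in C against 535 to 566 in controls, and its footprints at 306, 424 and 429 CPM against 350 to 440 (-0.42 ± 0.05, edgeR adjusted p = 0.000482). Rps2 (-0.42 ± 0.06), Rps19 (-0.33 ± 0.05) and the stalk protein Rplp1 (-0.41 ± 0.06) were also lower in D, with edgeR adjusted p of 0.000751, 0.00161 and 0.000721. Both D libraries of Rps15 and Rplp1 lay below all controls, and those of A did so too for Rplp1. Against A alone 15 small-subunit and 17 large-subunit genes were lower in D, and against C alone 6 and 4. Without the block none of these calls remained, and without the RNA library of D 5 and 3 were called, without that of A 3 and 2. These genes have many processed copies in the genome, so counts of uniquely aligned reads are uncertain for them. The median of the small-subunit list against the controls was -0.33 in RNA and -0.13 in footprints in D.

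A list of translation factors and other genes with TOP mRNAs, and lists of mitochondrial genes, were also lowest in D by their median. Of 15 translation factors and other genes whose mRNAs carry a TOP motif, 5 were called lower in D and none higher, against 7.07% of all genes lower in D. Among the 5 were the elongation factors Eef1a1 (-0.21 ± 0.05, edgeR adjusted p = 0.0123), Eef1d (-0.21 ± 0.05, edgeR adjusted p = 0.0154) and Eef2. Tpt1 and Hnrnpa1, which are not elongation factors, were among them too. Leaving out a library or lysate brought the 5 to between 0 (without RNA of D or footprints of A) and 3. Of 75 mitochondrial ribosomal proteins 13 were lower in D, 3 without the RNA of A or of D, and of 88 nuclear-encoded respiratory chain genes 20 were lower and 1 higher. The respiratory chain list was also high in A, with 23 called higher and none lower (median 0.11), where 8.00% of all genes were higher. C had 1 higher and 3 lower, where 3.80% and 5.75% of all genes were. Uqcr11, a subunit of complex III, was at 225 CPM of RNA in A, 180 in C and 145 in D and at 195 to 200 in controls, with log2 differences of 0.47 ± 0.06 in A and -0.39 ± 0.07 in D (edgeR adjusted p of 0.000374 and 0.0026). The exception was Cox6b2, a testis-type subunit of complex IV, which was higher in D (0.65 ± 0.08, edgeR adjusted p = 0.000301). Most of this list's contrast is A against D: 28 genes were higher and 2 lower in A than in D, and 2 higher and 1 lower in C than in D. Without the RNA library of A the list had no call in A and none lower in D, and without the block only Uqcr11 in A was called in these 3 lists.

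Genes of the machinery that Krr1 belongs to were called most often in D, with small differences. Of 59 processome and small-subunit maturation genes, 13 were called lower in D, against 7.07% of all genes. There were 2 called higher in D, against 7.85% of all genes, and 1 of them was Krr1. The list's median log2 difference in D was -0.10. In A 2 were higher and 4 lower, Krr1 among the latter, where 8.00% and 6.28% of all genes were. The counts in A were thus near or below these shares. In C 4 were higher, Krr1 included, where 3.80% of all genes were. The largest difference apart from Krr1 among those named was in Fbl, the methyltransferase of box C/D snoRNPs, at -0.51 ± 0.12 in D (edgeR adjusted p = 0.0157), where RNA was 20.6 CPM in D and 32.3 to 36.4 in A and C and footprints were 36 in D, 38.0 in C and 50.8 in A. Tsr1, which acts late in small-subunit maturation (-0.25 ± 0.05), and Nob1, the nuclease that makes the end of 18S rRNA (-0.23 ± 0.05), were lower in D with edgeR adjusted p of 0.00767 and 0.0143. Wdr43 was lower in A (-0.28 ± 0.06, edgeR adjusted p = 0.00751). The median of this list against the controls was between -0.06 and 0.04 in all 3 lysates and both assays. Of 20 RNA polymerase I genes 6 were lower in D, among them the largest subunit Polr1a (-0.35 ± 0.06, edgeR adjusted p = 0.00211), with 97.3 CPM of RNA in D, 119 in A, 126 in C and 100 to 104 in controls. Without RNA of A or of D, or footprints of A, 1 polymerase I gene was called lower in D. Of 53 large-subunit assembly genes 3 were lower in D, 2 higher in A and 1 higher in C, where 7.07%, 8.00% and 3.80% of all genes were. Without RNA of A or of D, or footprints of A, no processome gene was called in D, and without the block Krr1 in A was the only call of these lists.

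**Figure D4:**
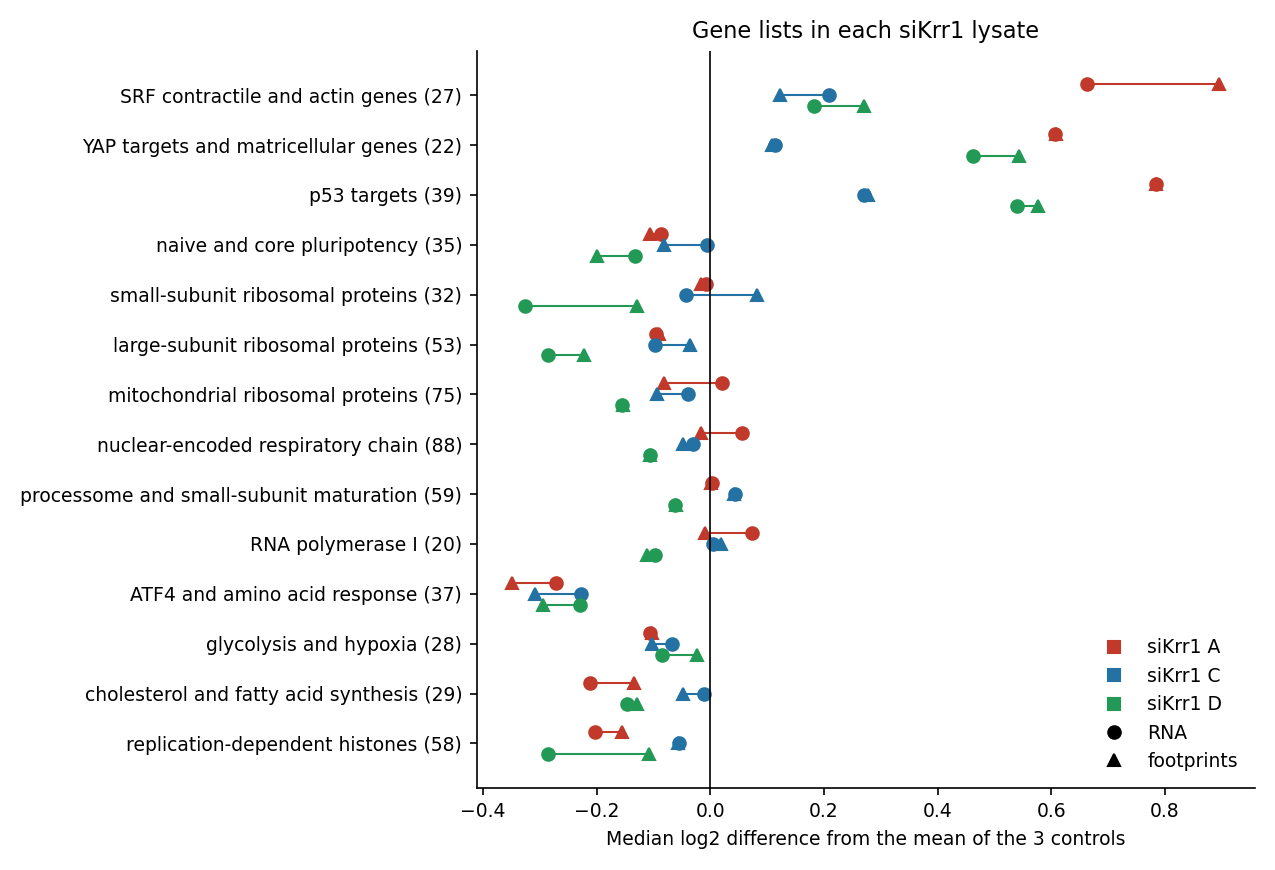
Median log2 difference from the control mean (horizontal axis) of 14 gene lists in RNA (circles) and footprints (triangles) of each siKrr1 lysate, with the number of genes tested in brackets. The SRF, YAP and p53 lists lie farthest to the right in A (RNA medians of 0.66, 0.61 and 0.79), and the ribosomal protein lists farthest to the left in D.

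Pluripotency genes differed modestly, and by the median of their list C lay nearest to the controls. The medians against the controls in A, C and D were -0.09, -0.007 and -0.13 in RNA. In footprints they were -0.11, -0.08 and -0.20, with A and C close together. C was also nearest to the controls over the 6150 genes described above. Of 35 tested, 10 were called higher and 2 lower in C (median 0.09), 2 higher and 8 lower in D (-0.07), and 2 higher and 4 lower in A (-0.02). Among all genes 3.80% were higher and 5.75% lower in C, 7.85% and 7.07% in D, and 8.00% and 6.28% in A. Nanog RNA was at 343 CPM in C, 274 in A and 282 in D against 445, 452 and 449 in controls, and its footprints at 613, 482 and 493 CPM against 810, 816 and 791. All siKrr1 values were below all controls, and C was the highest of the 3 in both assays (0.32 ± 0.05, edgeR adjusted p = 0.00143). The naive-state factors Tfcp2l1 and Tbx3 had the same order of C above A, with log2 differences of 0.36 ± 0.05 and 0.39 ± 0.06 in C (edgeR adjusted p of 0.000948 and 0.000893), and Tfcp2l1 was lowest in A (-0.44 ± 0.05, edgeR adjusted p = 0.000218). Pou5f1 was lowest in D, with RNA of 2330 CPM against 2755 in A, 2921 in C and 2911 to 2943 in controls (-0.22 ± 0.05, edgeR adjusted p = 0.0110). Zfp42 (Rex1) was also lowest in D, at 772 CPM of RNA against 946 and 994 in A and C and 1200 to 1228 in controls (-0.33 ± 0.05, edgeR adjusted p = 0.00158). Sox2 was not called in any lysate, with RNA of 581, 613 and 602 CPM in A, C and D and 538 to 630 in controls, and Klf4 was called only in C (0.26 ± 0.07, edgeR adjusted p = 0.0435). Without the block only Tfcp2l1 in A was called, and without RNA of A or of C 4 members were higher in C.

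Of 17 genes of the formative and primed epiblast, the later state of pluripotency, 6 were called higher and 2 lower in A, 4 and 4 in C, and 2 and 5 in D. The shares over all genes were 8.00% and 6.28% in A, 3.80% and 5.75% in C, and 7.85% and 7.07% in D. Otx2, a factor of that state, was at 31.6 CPM of RNA in A, 17.8 in C and 19.4 in D and at 8.77 to 10.7 in controls (0.71 ± 0.08 in A, edgeR adjusted p = 7.97e-05). Zic2 had a different order, with RNA of 5.48, 4.25 and 2.44 CPM in A, C and D and 3.76 to 6.16 in controls (-1.11 ± 0.15 in D, edgeR adjusted p = 0.000536). Lef1 was highest in A and lowest in C (0.65 ± 0.12 and -0.76 ± 0.12, edgeR adjusted p of 0.00267 and 0.00202). So these genes did not share 1 order of lysates. Leaving out a library or lysate brought these counts to as few as 1 higher in A, 1 higher and 0 lower in C, and 2 lower in D.

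Markers of other lineages moved in both directions. The shares over all genes were 8.00% higher and 6.28% lower in A, 3.80% and 5.75% in C, and 7.85% and 7.07% in D. Of 13 trophectoderm genes tested 3 were called higher (Krt19, Tfap2c and Cdx2) and 4 lower (Tead4, Cldn4, Eomes and Gata2) in A, 1 lower in C, and 1 higher and 3 lower in D. Of 9 mesoderm genes 3 were higher (Wnt3, T and Msx2) and 3 lower (Kdr, Evx1 and Eomes) in A, 1 higher and 3 lower in C, and 1 higher in D. Of 10 neural genes 2 were higher and 3 lower in A, 3 and 3 in C, and 2 and 4 in D, and of 15 endoderm genes 3 were higher in A, 1 higher and 3 lower in C, and 3 higher and 1 lower in D. Eomes, a factor of both trophectoderm and mesoderm, was at 6.13 CPM of RNA in A, 8.69 in C, 8.62 in D and 9.61 to 11.7 in controls (-0.44 ± 0.11 in A, edgeR adjusted p = 0.0199). The trophectoderm factor Cdx2 was at 2.92 CPM of RNA in A, 1.55 in C, 0.769 in D and 0.818 to 1.94 in controls (edgeR adjusted p = 0.0148 in A). Without the RNA of A, 2 trophectoderm genes and none of the other 3 lists were called in A, and without its footprints 1 mesoderm gene and 1 neural gene.

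Metabolic and stress lists were split. The shares over all genes were 8.00% higher and 6.28% lower in A, 3.80% and 5.75% in C, and 7.85% and 7.07% in D. Of 28 glycolysis and hypoxia genes, 9 were called higher and 3 lower in D, and 4 higher and 7 lower in A. Egln3 RNA was at 10.4 CPM in A, 15.2 in C and 26.1 in D, with controls from 13.2 to 21.4. Pfkp, a phosphofructokinase, was at 230, 300 and 336 CPM in A, C and D and at 361 to 457 in controls (-0.49 ± 0.05 in A and 0.39 ± 0.05 in D, edgeR adjusted p of 8.11e-05 and 0.000504). Ldhb went the other way, as given above. For this list the controls also moved, with medians from -0.13 to 0.29 for 1 control against the other 2. Leaving out a library or lysate gave 4 to 11 higher in D and 3 to 11 lower in A. Of 37 genes of the ATF4 and amino acid response 8 were lower in A and none higher, among them the arginine transporter Slc7a3 (-0.32 ± 0.06, edgeR adjusted p = 0.00208) and Atf4 itself (-0.25 ± 0.06, edgeR adjusted p = 0.0144). Atf4 RNA was at 386, 427 and 434 CPM in A, C and D and at 519 to 583 in controls, so all 3 lysates were below the controls. In D 4 genes of that list were higher and 1 lower, and in C 2 and 1. Without RNA or footprints of A no member of the ATF4 list was called in A.

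Of 29 cholesterol and fatty acid synthesis genes 6 were called lower in A and none higher, 5 higher in C and none lower, and 2 higher and 5 lower in D. Among all genes 6.28% were lower in A, 3.80% higher in C, and 7.85% higher and 7.07% lower in D. Scd1, the stearoyl-CoA desaturase, was at 24.2, 42.4 and 39.8 CPM of RNA in A, C and D and at 47.4 to 54.9 in controls (-0.60 ± 0.09 in A, edgeR adjusted p = 0.000827). Insig1, a sterol sensor, was at 58.7, 89.0 and 84.2 CPM and at 88.4 to 102 (-0.52 ± 0.07, edgeR adjusted p = 0.000564). Insig1 was among the genes away from the controls in A alone, while Scd1 was below all controls in C and D as well. Without the block Insig1 and Tm7sf2, a sterol reductase, stayed called in A, and without RNA of A no member was.

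Of 30 G2/M genes 4 were called higher in D, where 7.85% of all genes were, and 2 lower in C, where 5.75% were. Leaving out a library or lysate gave 0 to 8 higher in D, with 0 without the RNA of A or of D, and without the block none was called. Among the 4 was Top2a, the topoisomerase of dividing cells, at 804 CPM of RNA in D, 576 in A and 587 in C against 562 to 594 in controls (0.33 ± 0.06, edgeR adjusted p = 0.00371). Of 32 G1/S genes 1 was higher and 2 lower in A, where 8.00% and 6.28% of all genes were. In C 1 was higher, where 3.80% were, and in D 1 was higher and 3 lower, where 7.85% and 7.07% were. These counts lay near or below the shares over all genes. All of these calls but that of Cdk6 in D were of the 3 D-type cyclins. Ccnd3 was at 109 CPM of RNA in A, 152 in C, 156 in D and 205 to 232 in controls (-0.45 ± 0.06 in A, edgeR adjusted p = 0.000481). Ccnd1 was lowest in D (-0.27 ± 0.06, edgeR adjusted p = 0.0108), and Ccnd2, as given above, highest in C.

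Genes of the response to double-stranded RNA and of the small RNA pathway were checked as well. Of 20 interferon response genes, 3 were called higher and 4 lower in A, 2 and 2 in C, and 6 and 2 in D. Among all genes 8.00% were higher and 6.28% lower in A, 3.80% and 5.75% in C, and 7.85% and 7.07% in D. Tap1, which is also in the p53 list, led the rise in A and Ddx58 (RIG-I, a sensor of viral RNA) the fall. Ddx58 RNA was at 72.8, 102 and 120 CPM in A, C and D and at 115 to 127 in controls (-0.55 ± 0.06, edgeR adjusted p = 0.000115). Parp14 was highest in D, with 3.66 CPM of RNA, against 1.22 and 1.55 in A and C and 2.23 to 2.96 in controls (1.23 ± 0.16, edgeR adjusted p = 0.000534). Leaving out a library or lysate brought the counts of this list to as few as 1 higher and 0 lower in A and 2 higher in D. No siKrr1 lysate had a median difference from the controls above 0 in this list. Of 12 genes of the small RNA pathway 1 was called, the Argonaute gene Eif2c1 (Ago1), higher in A (0.24 ± 0.07, edgeR adjusted p = 0.0393). That is 8.33% of the list, near the 8.00% of all genes called higher in A. Of 20 unfolded protein response genes 2 were lower in A and 1 higher in D, where 6.28% and 7.85% of all genes were. Of 16 heat shock genes 1 was higher in A and 2 lower in D, where 8.00% and 7.07% of all genes were.

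The error of the test is the disagreement of the assays, so the calls favour genes whose assays agree. Of the 2834 genes with any difference, 1968 (69.4%) had the same lysate farthest from the other 2, on the same side, in RNA and footprints. Of all 12668 genes tested 4715 (37.2%) did, and since the calls favour such genes, the share is a description of them. The lysate apart was A at 399 genes on the high side and 364 on the low side, C at 185 and 325, and D at 315 and 380. In 866 genes it differed by assay, as in Pmaip1, where the lysates were graded. Of 9283 genes whose mean reached 5 CPM in both assays, no gene differed by over 1.5-fold in opposite directions in RNA and footprints, and 123 differed so in the same direction in A, 88 in C and 61 in D. At most 2 genes per lysate had a difference over 2-fold in 1 assay with less than 1.25-fold in the other.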

How the data were processed

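RNA and ribosome footprints were sequenced from 6 lysates, and the authors deposited tables of raw counts of reads for each gene. The submitters' processing notes name STAR, HTSeq and the build mm10, and the summary rows of the deposited tables count only unique alignments. Versions, the annotation and the strand setting were not found in the labels or files used. Rows that name no gene were dropped. Counts on genes were 66.4% to 68.6% of the RNA tables and 36.6% to 42.4% of the footprint tables. Of 23420 symbols, 23284 (99.4%) matched the RefSeq gene table of GRCm38.p6, which is mm10, and promoter sequences are RefSeq's for that build.

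Genes were kept where the mean over the condition reached 0.5 CPM in both assays. edgeR 4.0.16 (R 4.3.3) fitted the quasi-likelihood model to the 6 siKrr1 libraries with lysate and assay as terms and TMM factors within each assay, and each lysate was tested against the mean of the other 2. There were 2 residual degrees of freedom, moderated across genes (median prior 11), and the biological coefficient of variation was 6.08%. p-values were adjusted by Benjamini-Hochberg over all genes. Log2 values are given ± SE, and the CPM printed for single genes carry TMM factors computed within each assay over its siKrr1 and control libraries. Summed marker CPM and the CPM thresholds are scaled to library size alone. The lysate term is the block that pairs the 2 assays of a lysate, which the labels say were split from it. A second fit without it, DESeq2 1.42.0, other scalings and filters, and fits without each library or lysate were the alternatives. The scripts were tested on simulated data.

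The members and gene lists were chosen with earlier results of these data known. Genes named were Krr1, up to 10 called genes per lysate and direction with the largest differences among those of at least 5 CPM in both assays with that lysate highest or lowest in both, up to 3 called members per list and lysate with the smallest adjusted p, and a few named markers. Some genes that meet these rules are not reported here. Man2b1, Ldhb, Snrpg, Cnn2, Vcl, Actb, Fstl1, Ajuba, Amotl2, Fbl, Atf4, Eomes, Cdx2 and the genes named as kept without the block were chosen after their values were seen.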

Additional observations from a re-analysis of the deposited data

How the results depend on the processing

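The log2 differences of the 20 genes that the rule on size picks for each lysate kept their sign under the alternatives run. The calls of 12 of these 20 in A, 6 in C and 6 in D were kept under all of them, 5, 14 and 14 were lost without the replicate block, and 5, 2 and 4 when a library or lysate was left out. Without the replicate block, 197 genes were called in A, 21 in C and 14 in D, in place of 1808, 1211 and 1889. That fit takes the spread between the other 2 lysates as error, and the leave-out fits have fewer samples. DESeq2 called 804 genes in C, 1182 in D, 134 in siGFP and 61 in siNC, and without a filter 1929 were called in C, 752 in siGFP, 321 in siNC and 185 in Lipo; the cause was not tested. Leaving out a library or lysate gave counts of 154 to 2444 in A, 306 to 1621 in C, 237 to 2444 in D, 585 to 2976 for any difference, 130 to 738 in siGFP, 44 to 419 in siNC and 8 to 286 in Lipo. The lowest counts for A came without its RNA or its footprints, for C without the footprints of A, and for D and any difference without the RNA of A. The count for any difference was also low without the footprints of A (667) and the RNA of D (1670), and C and D both fell to 650 without lysate A. A lysate left with 1 library is assumed to vary like the others. With TMM factors over all 6 libraries siGFP had 198 genes higher of 448, in place of 205 of 363. With the scalings of TMM over all libraries and size factors, the list medians kept their sign apart from that of the respiratory chain in C, which is near 0. DESeq2 and the fit without the block give no value for any difference, and the controls were not fitted without the block.

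Of the gene differences called with all 6 libraries, 14 turned sign, each when another lysate was left out, so that the 2 remaining lysates were compared alone, here with the range over all leave-outs. In A without D these were Gspt1 at -0.079 (edgeR adjusted p = 0.366, range -0.079 to 0.87), Lrrk2 at 0.037 (edgeR adjusted p = 0.9, range -1.33 to 0.037). In C without A these were Id2 at 0.062 (edgeR adjusted p = 0.744, range -1.09 to 0.062), Ldhb at 0.15 (edgeR adjusted p = 0.253, range -0.80 to 0.15), Tagln at 0.36 (edgeR adjusted p = 0.163, range -2.55 to 0.36). In C without D these were Pmm2 at -0.11 (edgeR adjusted p = 0.364, range -0.11 to 0.71), Rps15 at -0.026 (edgeR adjusted p = 0.791, range -0.026 to 0.41). In D without A these were Krr1 at -0.039 (edgeR adjusted p = 0.845, range -0.039 to 0.85), Man2b1 at 0.089 (edgeR adjusted p = 0.434, range -0.90 to 0.089), Myl9 at 0.22 (edgeR adjusted p = 0.421, range -1.95 to 0.22). In D without C these were Ccnd2 at 0.20 (edgeR adjusted p = 0.173, range -1.28 to 0.20), Commd3 at -0.27 (edgeR adjusted p = 0.0171, range -0.27 to 1.04), Mapt at 0.21 (edgeR adjusted p = 0.387, range -1.13 to 0.21), Vim at -0.033 (edgeR adjusted p = 0.785, range -0.033 to 0.60). Under an alternative 11 differences that were not called also changed sign. Apart from the 14, 4802 values kept their side of the threshold or moved by less than their spread, 978 lost a call, 101 moved and 22 gained a call. With 31318772 counts on genes in the shallowest RNA library and 21615934 in the shallowest footprint library, genes under 0.5 CPM were not tested.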

Other observations

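Maternally expressed long noncoding RNAs of the imprinted Dlk1-Dio3 locus were higher in A. Rian RNA was at 213 CPM in A, 137 in C and 136 in D against 91.7, 95.7 and 106 in siGFP, siNC and Lipo, with a log2 difference of 0.65 ± 0.07 (SE) in A (edgeR adjusted p = 4.97e-05). Meg3 (0.62 ± 0.11) and Mirg (0.58 ± 0.14), chosen after their values were seen, were called as well, with edgeR adjusted p of 0.00253 and 0.0164. All 3 were above all controls in the RNA of each siKrr1 lysate. Whether their reads in the footprint libraries come from ribosomes was not tested. Of 23 imprinted genes tested, 6 were called higher and 4 lower in A, 3 and 8 in C, and 4 and 4 in D. Among all genes 8.00% were higher and 6.28% lower in A, 3.80% and 5.75% in C, and 7.85% and 7.07% in D. Phlda2, a placental growth gene, was at 52.4, 94.5 and 67.2 CPM of RNA in A, C and D and at 107 to 125 in controls (0.55 ± 0.07 in C, edgeR adjusted p = 0.000323). Necdin (Ndn) was highest in D (0.58 ± 0.09, edgeR adjusted p = 0.00208).

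Signalling targets differed between lysates without a common order. The shares over all genes were 8.00% higher and 6.28% lower in A, 3.80% and 5.75% in C, and 7.85% and 7.07% in D. Of 12 Wnt targets, 6 were called higher and 3 lower in A, 3 lower in C, and 2 higher and 2 lower in D. Axin2, the feedback inhibitor of Wnt, was at 15.7, 25.9 and 34.0 CPM of RNA in A, C and D and at 23.9 to 28.0 in controls (-0.89 ± 0.09 in A, edgeR adjusted p = 6.13e-05), while Sp5 and Lef1 were higher in A. Of 15 ERK feedback genes, 2 were higher and 4 lower in A, 4 lower in C and 4 higher in D. The ERK phosphatase Dusp4 was at 33.8, 26.6 and 50.0 CPM and at 21.6 to 29.3 in controls (0.70 ± 0.07 in D, edgeR adjusted p = 6.88e-05). Of 19 Nodal, BMP and TGF-beta targets, 5 were higher and 2 lower in A, 1 and 3 in C, and 2 and 4 in D. Lefty2 was lowest in D (-0.52 ± 0.06, edgeR adjusted p = 0.000179), but it spanned 79.7 to 149 CPM of RNA in the controls.

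Vimentin (Vim), an intermediate filament, was low in C, at 238 CPM of RNA against 362 in A, 351 in D and 278 to 303 in controls (-0.62 ± 0.05, edgeR adjusted p = 2.17e-05), and the tight junction gene Cldn6 was at 33.5, 19.6 and 29.6 CPM in A, C and D and at 9.89 to 12.2 in controls (-0.75 ± 0.08 in C, edgeR adjusted p = 8.64e-05). The neural progenitor filament Nes was highest in A, at 34.1, 22.4 and 23.2 CPM of RNA and 13.6 to 15.4 in controls (0.57 ± 0.07, edgeR adjusted p = 0.000313). Of 58 replication-dependent histone genes, whose copies share reads and whose mRNAs lack a poly(A) tail, 3 were called higher and 12 lower in A, 6 higher in C, and 1 higher and 9 lower in D. The 12 in A fell to 0 without its RNA or footprints, the 6 in C to 0 without the footprints of A, and the 9 in D to 2 without the RNA of D or the footprints of A. The linker histone Hist1h1a was at 2804, 2980 and 2069 CPM of RNA in A, C and D and at 3050 to 3241 in controls (-0.38 ± 0.05 in D, edgeR adjusted p = 0.000848). Of 37 proteasome subunits, 6 were higher and 1 lower in A, 2 higher in C and 7 lower in D, among them Psmb10 (-0.42 ± 0.06 in D, edgeR adjusted p = 0.000908). For the histone and proteasome counts, the shares over all genes were 8.00% higher and 6.28% lower in A. They were 3.80% higher in C, and 7.85% higher and 7.07% lower in D. The 7 in D fell to 1 without the RNA of A or of D or without lysate A, and without the replicate block no histone or proteasome gene was called. For the imprinted, Wnt, ERK and Nodal lists, the lowest count per lysate and direction when a library or lysate was left out was 0 to 3.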
